A study of Cavia porcellus with 34 samples.

Results

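The genes described here encode ion channels and their subunits. They cover the sodium channel family (SCN), voltage-gated calcium channels with auxiliary subunits (CACNA1, CACNA2D, CACNB, CACNG), HCN channels, and TRPC, TRPM and TRPV cation channels. They were chosen by symbol alone, and expression played no part in the rule. The tables held 56 such genes of 12114 in F1, 56 of 12207 in F2 and 54 of 12068 in F3. A mean of at least 10 normalized counts was asked of a gene before testing, and 53, 53 and 52 of them passed in F1, F2 and F3. Those left untested were SCN10A in every generation, TRPM5 and TRPM6 in F1, SCN4A and TRPM5 in F2, and TRPM6 in F3. HCN2 and TRPV1 were not analysed here.

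RNA was sequenced from punches of the hypothalamic paraventricular nucleus (PVN), the cell group that drives the hypothalamo-pituitary-adrenal response to stress, in juvenile female guinea pigs labelled as postnatal day 40. By the study's methods their mean age at collection was somewhat later. Their pregnant founder mothers received saline (Veh) or betamethasone, a synthetic glucocorticoid (sGC), and the exposure was followed through the paternal line. F1 held 5 Veh and 5 sGC animals, F2 held 5 and 5, and F3 held 6 and 6. In F1 the fetus itself was exposed, whereas F2 and F3 animals descended from exposed F1 males. By the study's methods the animals came from separate litters, and a punch could also hold hypothalamus next to the PVN.

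Voltage-gated sodium channels carry the upstroke of the action potential, and their beta subunits set how fast they open and close and where they sit. Voltage-gated calcium channels turn depolarization into calcium entry for firing patterns and peptide release, HCN channels carry a depolarizing current at rest, and TRP channels are cation channels opened by lipids, calcium, temperature or osmotic change. In the hypothalamus these families shape the firing of the neurosecretory neurons that release vasopressin, oxytocin and the hypophysiotropic peptides.

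The deposited totals ranged from 15573233 to 21935501 normalized counts per animal, and values below are scaled to the mean total of their own table. PVN markers were present in all 3 tables, with 8 of 9 listed in each; vasopressin (AVP) averaged 67627 in F1, 53563 in F2 and 13912 in F3, but the tables were normalized separately. In such tissue, fewer cells of a type and less RNA per cell cannot be told apart. One F1 Veh animal, SGM11, lay almost exactly at the mean of its group. It was the highest or lowest of the 5 for 0.16% of 11874 genes, against 39.8% to 56.5% for the other Veh animals, and its median distance from the mean of the others was 0.01 on the log2 scale against 0.08 to 0.11. It held 78.9% of the 1 direction of variation that the authors' normalization had removed from that table. It therefore added little of its own spread. The F1 channel gene calls and the differences between generations are given with and without it. Partner genes, cell markers and group overlap are given only with it included.

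**Figure D1:**
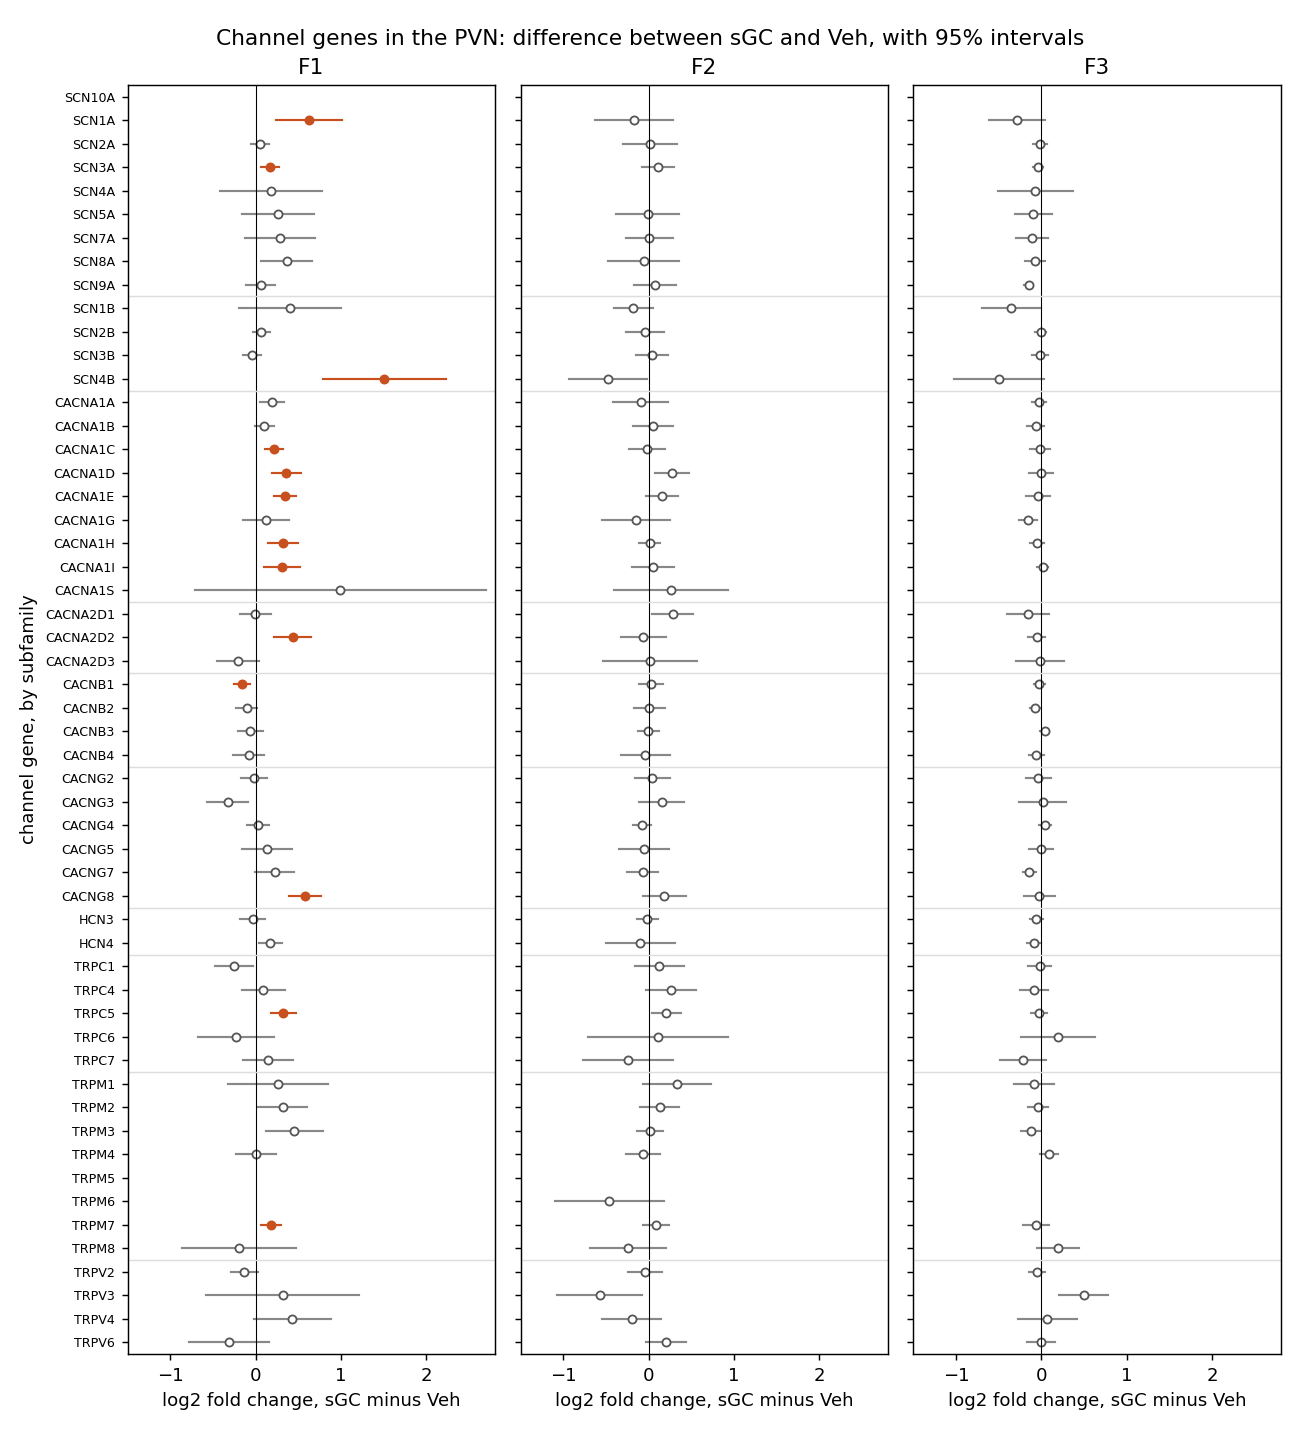
Log2 fold change (sGC minus Veh, x axis) with its 95% interval for the channel genes reported by name (y axis, grouped by subfamily) in F1, F2 and F3. Filled points are under an adjusted p of 0.05: 13 are plotted in F1, and 0 in F2 and in F3; genes with no point in a panel were not tested there.

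In F1, 14 of the 53 channel genes differed between sGC and Veh (limma, Benjamini-Hochberg adjusted p under 0.05 over all 11874 genes tested), 13 of them higher in sGC. That is 26.4% of the channel genes, beside 16.4% of all genes, and 24.5% called higher beside 8.64% of all genes. The 1 called lower is 1.89%, beside 7.72% of all genes. The median log2 fold change was 0.16 over the channel genes and 0.01 over all genes, and 71.7% lay above 0 beside 52% of all genes. Without SGM11, 8 were called, all higher, beside 7.48% of all genes and 4.53% called higher: CACNG8, CACNA1E, TRPC5, CACNA1D, SCN4B, CACNA1C and CACNA2D2, which were called whichever single animal was left out, and TRPM6, whose mean over all 10 animals was below the minimum for testing and which is named after its values were seen. On the deposited scale, without scaling to the total, the count was 2 (SCN1A and SCN4B, both higher), beside 0.657% of all genes and 0.606% called higher, and 92.3% of the 78 genes called were higher, against 52.8% of 1943 after scaling. With the removed direction counted as a covariate, 9 channel genes were called, all higher, beside 10.6% of all genes and 5.81% called higher. The calls of SCN1A, SCN3A, CACNA1I, CACNB1 and TRPM7 were lost there.

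Of the channel genes called in F1, SCN4B had the largest fold change. It encodes a beta subunit linked to the resurgent sodium current of fast-firing neurons. In Veh animals it stood at 15.1, 8.41, 11.4, 10.4 and 13.0 normalized counts, and in sGC animals at 42.4, 64.6, 20.02, 20.3 and 43.2. The groups did not overlap, although 2 sGC animals lay near 20 and the other 3 above 42. The log2 fold change was 1.51 ± 0.33 (SE; adjusted p = 0.0125), from 11.7 ± 2.56 to 38.1 ± 18.6 (SD, n = 5 each). This is a gene of low counts, so its level rests on few reads.

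SCN1A, the pore subunit mutated in Dravet syndrome, stood at 219, 180, 233, 289 and 276 in Veh and at 336, 520, 300, 292 and 414 in sGC. The groups did not overlap, but the lowest sGC value and the highest Veh value were close. Its log2 fold change was 0.62 ± 0.18 (SE; adjusted p = 0.0347), and it was under the threshold in 4 of the 10 fits that left out 1 animal (adjusted p = 0.0804 without SGM11). SCN3A, a pore subunit prominent in early life, was called at 0.16 ± 0.05 (adjusted p = 0.0414), but in 2 of the 10 fits that left out 1 animal, and not with quantile normalization (0.0676) or with the removed direction as a covariate (0.0695). All 8 tested alpha subunits had fold changes above 0, with 2 called. SCN8A was at 0.36 (adjusted p = 0.0955), SCN7A at 0.28 (0.317), SCN9A at 0.06 (0.628) and SCN2A at 0.05 (0.506).

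All 9 CACNA1 pore subunits had fold changes above 0 in F1, and 5 were called higher. CACNA1E, the R-type pore, stood at 3309, 3464, 3412, 3291 and 3458 in Veh and at 4047, 4076, 4943, 4579 and 3954 in sGC. The Veh animals lay within a narrow band and every sGC animal was above it, with a log2 fold change of 0.35 ± 0.06 (SE; adjusted p = 0.00441). CACNA1D and CACNA1C are the L-type pores of neurons. CACNA1D stood at 490, 483, 499, 458 and 521 in Veh and at 587, 540, 646, 687 and 700 in sGC. CACNA1C stood at 1104, 1085, 1156, 1174 and 1243 in Veh and at 1351, 1431, 1305, 1317 and 1293 in sGC. Neither gene's groups overlapped, and the log2 fold changes were 0.36 ± 0.08 (adjusted p = 0.0111) and 0.22 ± 0.05 (adjusted p = 0.0127).

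The T-type pores, which open near rest and support burst firing, were called for CACNA1H (0.32 ± 0.08, adjusted p = 0.0226) and CACNA1I (0.31 ± 0.09, adjusted p = 0.0489), while CACNA1G was at 0.12 (adjusted p = 0.522). CACNA1H lost the threshold without SGM11 (adjusted p = 0.0562), and CACNA1I held it in 2 of 10 fits that left out 1 animal. CACNA1I also lost it with median-of-ratios size factors (adjusted p = 0.0613), quantile normalization (0.0771) and the removed direction as a covariate (0.076). The presynaptic pores CACNA1A and CACNA1B were at 0.19 (adjusted p = 0.0652) and 0.10 (adjusted p = 0.196).

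Auxiliary calcium channel subunits did not move as a block. CACNA2D2, an extracellular subunit that brings channels to the membrane, stood at 2383, 2038, 2275, 1788 and 2701 in Veh and at 2870, 3186, 3237, 3044 and 2665 in sGC. A single Veh animal reached into the sGC range, and the log2 fold change was 0.43 ± 0.10 (SE; adjusted p = 0.0159). CACNG8, an auxiliary subunit of AMPA glutamate receptors despite its name, had the smallest p of all the channel genes. It stood at 133, 136, 139, 145 and 147 in Veh and at 194, 237, 196, 191 and 231 in sGC, with no overlap and a log2 fold change of 0.58 ± 0.09 (SE; adjusted p = 0.0024).

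All 4 CACNB genes, the cytoplasmic beta subunits, had fold changes below 0 in F1. CACNB1 was the only channel gene called lower. It stood at 4737, 4494, 4534, 4116 and 4624 in Veh and at 3965, 4141, 4210, 3988 and 3877 in sGC, and it fell by 0.16 on the log2 scale (SE 0.04, adjusted p = 0.0304). The lowest Veh animal lay inside the sGC range, and without SGM11 the adjusted p was 0.081.

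Among the TRP channels, TRPC5, which is opened downstream of Gq-coupled receptors, stood at 1538, 1658, 1503, 1308 and 1484 in Veh and at 1739, 1861, 2042, 1946 and 1788 in sGC. Every sGC animal was above every Veh animal, at 0.33 ± 0.06 (SE; adjusted p = 0.00868).

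TRPM7, a channel fused to a kinase that carries magnesium and calcium, was called at 0.18 ± 0.05 (adjusted p = 0.0427; 0.103 without SGM11). TRPM3, a steroid-sensitive channel, was at 0.45 (adjusted p = 0.0638), and the osmotically gated TRPV4 was at 0.43 (adjusted p = 0.176). TRPM2 was at 0.31 (adjusted p = 0.126), TRPM4 at 0.002 (0.991) and TRPV2 at -0.13 (0.239). The 2 F1 groups did not overlap for 11 channel genes, all higher in sGC, beside 13.7% of all genes and 7.28% in that direction.

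**Figure D2:**
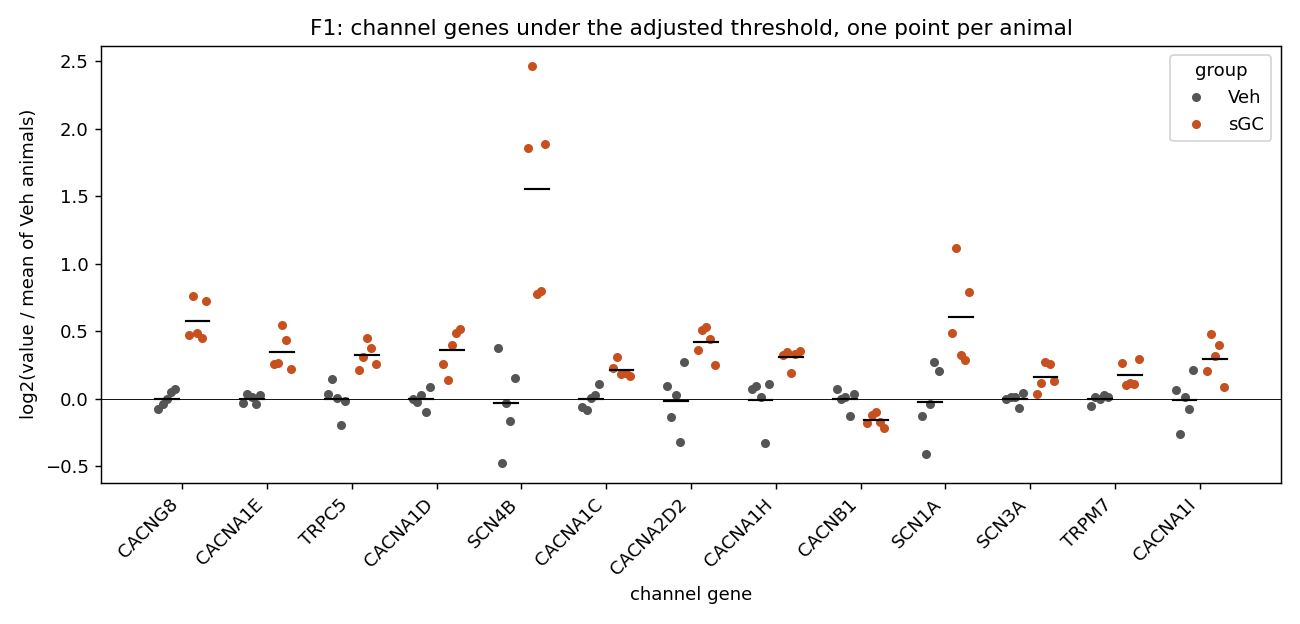
The 13 plotted channel genes called in F1 (x axis, by adjusted p), as log2 of each animal's value over the mean of the 5 Veh animals (y axis); grey points are Veh, orange points are sGC and bars are means of the plotted log2 values. SCN4B and SCN1A have the widest spread among sGC animals, and CACNB1 is the 1 gene that lies lower.

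Genes that bind or assemble with these channels were also read in F1, where 16.4% of all genes were called, 8.64% higher and 7.72% lower. Of 10 sodium channel partners, 2 were called higher, FGF14 (0.43, adjusted p = 0.00611), which binds the channel tail, and NFASC (0.38, adjusted p = 0.0338), which anchors channels at the axon initial segment. Another 3 were called lower, among them FGF13 (-0.20), a relative of FGF14, and CALM3 (-0.22), which encodes the calcium sensor calmodulin. RIMBP2, which tethers calcium channels at release sites, was the 1 called of 12 calcium channel partners (0.56, adjusted p = 0.00347). In the sodium leak group, UNC79 (0.39, adjusted p = 0.00205) and UNC80 (0.19, adjusted p = 0.0431) were called, of 5 genes. No HCN partner of 4 and no other TRP or store-operated gene of 10 was called. On the deposited scale every one of these partner calls was lost (RIMBP2 nearest, adjusted p = 0.0519), and with the removed direction as a covariate NFASC (0.0549) and UNC80 (0.0702) were lost. In F2 and F3, 0 genes of these lists were called.

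The summed level of some cell marker lists differed between the F1 groups, although the groups overlapped for every list and the sums were not tested. The log2 ratio of means was small for the pan-neuronal (-0.05), astrocyte (0.09) and ependymal (0.09) lists. The summed PVN peptide and lineage markers were 113732 to 215716 in Veh (median 185148) and 23137 to 187519 in sGC (median 55416). All 8 had fold changes below 0, and 1, TRH, was called lower (-0.998, adjusted p = 0.0405). AVP (mean 67627) and OXT (mean 52199) had the largest counts in the sum, and neither was called (adjusted p = 0.0883 and 0.0751). The lineage markers OTP, POU3F2 and SIM1 were at -0.69, -0.41 and -0.40, also not called. The 3 sGC animals with the lowest sums, SGM4, SGM8 and SGM20, were the 3 with SCN4B above 42. SCN1A was also highest in these 3. Other called genes did not share this order: CACNA1E and TRPC5 were highest in SGM12 and SGM16, which had the highest sums. The GABA neuron markers summed to 9729 to 20029 in Veh and 16491 to 28080 in sGC, with GAD2 called higher (0.58, adjusted p = 0.0487), and mature oligodendrocyte markers to 29197 to 51867 and 32949 to 88825. The mural markers, of which 2 of 5 were listed, summed to 3228 to 3753 in Veh and 3688 to 12114 in sGC (log2 ratio of means 0.81). The 1 fibroblast marker listed stood at 158.1 to 257.4 and 182.1 to 720.8 (0.70). SGM4 was highest for both, and 0 were called in either list. Among the other lists, the microglial marker CX3CR1 was called higher (0.25, adjusted p = 0.045) and the pan-neuronal marker STMN2 lower (-0.21, adjusted p = 0.0173). No marker of the PVN, GABA neuron and mature oligodendrocyte lists was at 0 in any animal. Their part in the channel results was not tested.

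**Figure D3:**
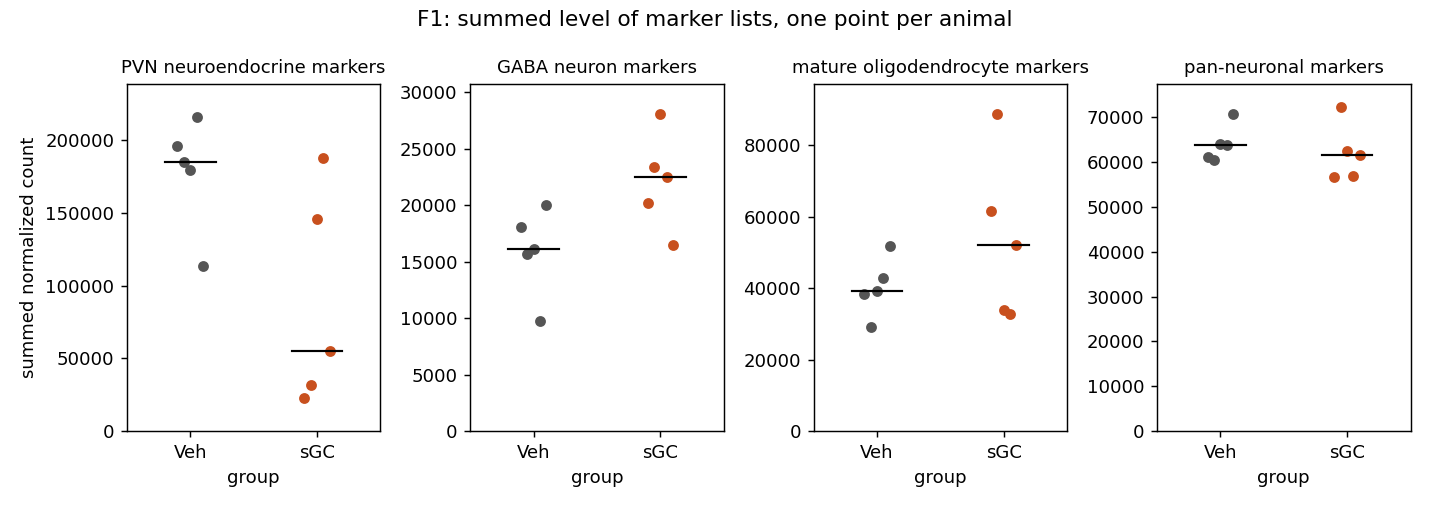
Summed normalized counts (y axis, from 0) of 4 marker lists in each F1 animal, by group (x axis); bars are medians. For the PVN list 3 of the 5 sGC animals lie below every Veh animal, while the groups overlap in all 4 panels.

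In F2, 0 of 53 channel genes and 0 of 11965 genes overall (0% of all genes) were called by limma. The study itself, with a different method (a likelihood ratio test), did report differentially expressed genes in each generation, F2 among them. At an unadjusted p under 0.05 there were 5 channel genes, beside 12.2% of all genes. CACNA1D stood at 670, 545, 571, 557 and 572 in Veh and at 581, 720, 831, 697 and 700 in sGC, a log2 fold change of 0.27 ± 0.09 (SE; adjusted p = 0.28). TRPC5 was at 0.21 (adjusted p = 0.316) and CACNA2D1 at 0.28 (adjusted p = 0.346), whereas TRPV3 was at -0.57 (adjusted p = 0.354). SCN4B stood at 38.5, 25.0, 41.6, 36.7 and 46.5 in Veh and at 36.6, 20.002, 27.3, 27.7 and 22.6 in sGC, a log2 fold change of -0.47 ± 0.21 (SE; adjusted p = 0.396). Both F2 groups overlapped for every tested channel gene, while 2.62% of all genes did not overlap.

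The F2 spread was uneven. SCN1A ran from 260 to 633 among Veh animals and from 321 to 373 among sGC animals. The Veh animal SGM28 was the highest of its group for 26 of the 53 channel genes, and SGM22 was the lowest for 30. The mature oligodendrocyte markers did not overlap between F2 groups, at 124144 to 234663 in Veh and 76110 to 107294 in sGC, and precursor and ependymal markers were also apart, although 0 genes of these lists were called. The PVN markers, all 8 below 0 in F1, were all 8 above 0 in F2, with 0 called. They summed to 58327 to 108001 in Veh and 83256 to 205237 in sGC (log2 ratio of means 0.60), with overlap. The part of all these markers in the channel values was not tested.

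In F3, 0 of 52 channel genes were called, beside 0.0421% of all genes (5 genes). At an unadjusted p under 0.05 there were 9, beside 13% of all genes, of which 8 were lower in sGC, beside 7.13% of all genes lower. Fold changes were below 0 for 42 of 52 (19.2% above 0, beside 48% of all genes), with a median of -0.04 beside -0.003 over all genes. All 8 tested sodium channel alpha subunits and all 4 beta subunits lay below 0, also within the first sequencing batch. That batch is a subset of the same animals, so it is no separate check of the signs. Of the CACNA1 pores 7 of 8 lay below 0, but 3 of 8 within the first batch, where 36 of the 52 channel genes lay below 0. The 5 pan-neuronal markers listed in F3 were also all below 0, with 0 called. Their sums were 60817 to 67646 in Veh and 58618 to 63546 in sGC (log2 ratio of means -0.07). This was not particular to F3. The 5 pan-neuronal markers tested in F2 were all below 0 too (log2 ratio of means -0.11), where 28 of 53 channel genes lay above 0. The part of these markers in the channel values was not tested.

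SCN9A, the pore subunit best known from pain-sensing neurons and also present in neurosecretory neurons, came nearest to the threshold. In Veh it ran from 2081 to 2187 (median 2164) and in sGC from 1872 to 1998 (median 1947). The groups were separate and the spread in each was small. It fell by 0.15 on the log2 scale (SE 0.02, adjusted p = 0.0502), from 2153 ± 39.5 to 1940 ± 60.1 (SD, n = 6 each). The adjusted p was 0.0472 on the deposited scale, beside 0.0506% of all genes called there, and 0.28 once the 2 directions removed by the authors' normalization were counted as covariates. Within the first F3 sequencing batch, which held all 6 Veh and 4 of the sGC animals, the log2 fold change was -0.15 (adjusted p = 0.186). In the deposited table the second batch holds sGC animals alone, so it gives no value of its own here.

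CACNG7, another AMPA receptor auxiliary subunit, ran from 1719 to 1967 (median 1828) in Veh and from 1603 to 1740 (median 1650) in sGC, a log2 fold change of -0.15 (adjusted p = 0.127). CACNA1G was at -0.16 (adjusted p = 0.204) and TRPM3 at -0.12 (adjusted p = 0.328). TRPV3, a warmth-sensitive channel, was the exception in direction, from 9.99 to 13.1 (median 10.98) in Veh and 14.9 to 19.0 (median 16.03) in sGC, at 0.49 (adjusted p = 0.164), and its counts are near the minimum for testing. SCN9A and TRPV3 were the 2 channel genes without overlap, beside 1.29% of all genes.

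**Figure D4:**
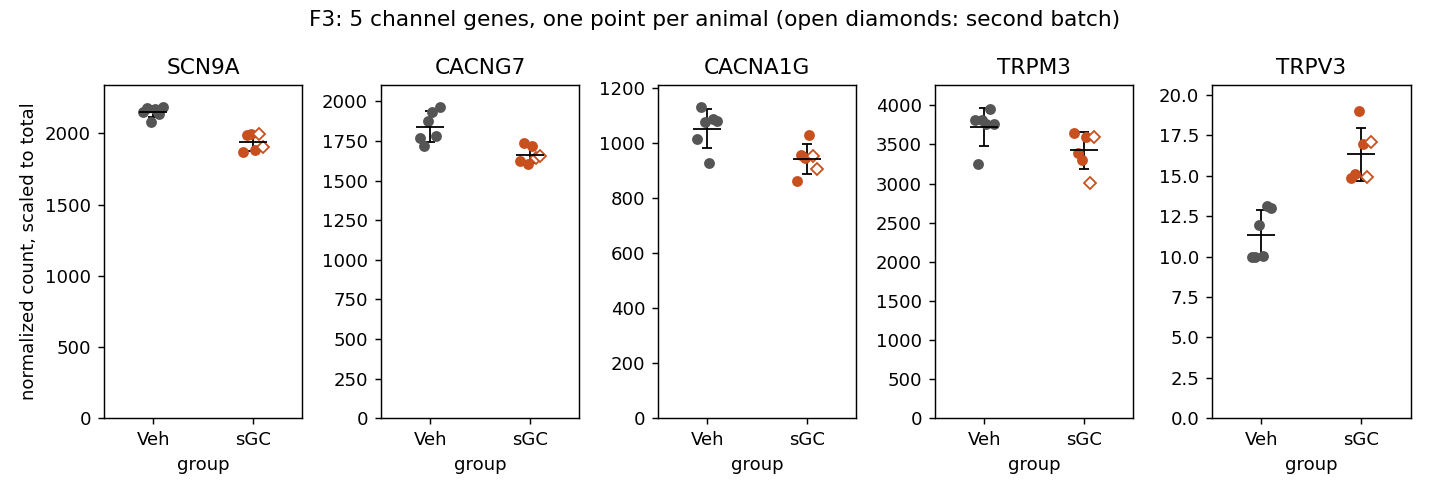
Normalized counts scaled to the total (y axis, from 0) of 5 channel genes in the F3 Veh and sGC animals (x axis); bars are means ± SD, filled circles the first batch and open diamonds the second. SCN9A and TRPV3 are separate between groups and the other 3 overlap.

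The difference between generations was tested directly, in a joint fit over 11429 genes that included 51 channel genes. The F1 effect exceeded the F2 effect for 3 of the 51, a smaller share than the 14% of all genes called in either direction. These were SCN4B by 1.98 ± 0.40 (SE; adjusted p = 0.00232), CACNA2D2 by 0.50 ± 0.14 (0.0198) and CACNA1H by 0.30 ± 0.09 (0.0236). Against F3 there were 10 of the 51, a share close to the 17.4% of all genes called in either direction. SCN4B differed by 2.005 ± 0.39 (adjusted p = 0.000632), SCN1A by 0.90 ± 0.27 (0.0196), CACNG8 by 0.60 ± 0.13 (0.00219) and TRPM3 by 0.58 ± 0.15 (0.00667). The others were CACNA2D2, CACNA1E, CACNA1H, CACNG7, CACNA1D and TRPC5, at 0.35 to 0.49. F2 and F3 differed for 0 channel genes, beside 0.157% of all genes, with 5 at an unadjusted p under 0.05 beside 14.5% of all genes. Leaving out SGM11 gave the same 3 and the same 10. Other settings ended some of these calls. Against F2, CACNA1H was lost on the deposited scale (adjusted p = 0.0552), with the removed directions as covariates (0.0529) and with a separate variance for each generation (0.0747), and CACNA2D2 with separate variances (0.0652). Against F3, the deposited scale kept SCN4B, SCN1A, CACNG8 and TRPM3 and lost the other 6, at adjusted p from 0.0528 for CACNG7 to 0.141 for TRPC5.

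SCN4B had log2 fold changes of 1.51 in F1, -0.47 in F2 and -0.50 in F3, the last 2 not under the threshold. Its Veh mean was 11.7 in F1, 37.7 in F2 and 44.0 in F3, and its sGC mean was 38.1, 26.8 and 30.8. These levels come from tables normalized separately and carry no test between them. CACNA1D and TRPC5 were above 0 in F1 and F2 and at -0.01 and -0.03 in F3.

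**Figure D5:**
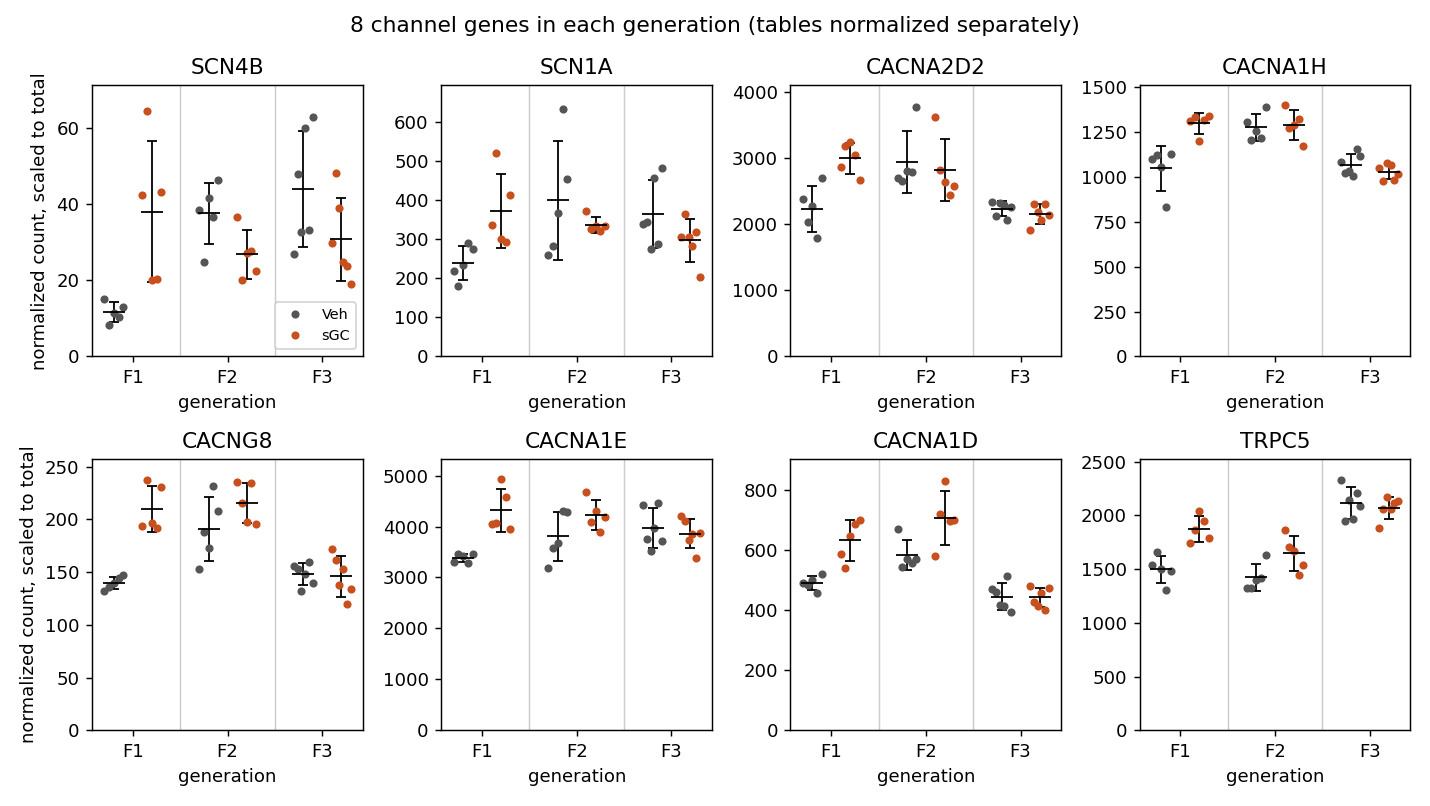
Normalized counts scaled to the total of each table (y axis, from 0) for 8 channel genes in Veh and sGC animals of each generation (x axis); bars are means ± SD. The Veh values of SCN4B lie between 8.41 and 15.1 in F1, below every animal of F2 and F3, in tables that were normalized separately.

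Several of these genes lie side by side in the genome. By symbol, 53 of the 56 matched RefSeq assembly mCavPor4.1, which served for gene order only. SCN4B is next to SCN2B, and in F1 they stood at 1.51 and 0.07. CACNG7 is next to CACNG8, at 0.22 and 0.58. SCN1A, SCN9A and SCN7A are consecutive protein-coding genes, at 0.62, 0.06 and 0.28 in F1 and at -0.28, -0.15 and -0.11 in F3. The library kit does not mark strand, so reads from overlapping or antisense genes cannot be told apart.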

How the data were processed

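PVN mRNA libraries (34 samples in the labels, 2 of them technical repeats not used here) gave 3 tables, 1 per generation, with 32 animals. By the study's methods, single-end reads were aligned to cavPor3 and counted per gene, outlying counts were removed, and RUVSeq normalization on residuals was applied, with ComBat before it for F3. The deposited values are thus normalized counts rounded to whole numbers by the authors, treated here as a score and not as raw counts. They do not vary along 1 direction in F1, 1 in F2 and 2 in F3. The deposited columns of fold changes, likelihood ratios and p-values were not used.

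Values were scaled to the mean total of their table, log2(value + 1) was taken, and genes with a mean of at least 10 were tested with limma 3.58.1 (R 4.3.3; empirical Bayes with a trend), two-sided, with Benjamini-Hochberg adjustment over all genes tested. A fold change on this scale understates the change of low genes. Differences between generations came from a joint limma fit of 6 group means. Values were scaled to the total because count models commonly take totals as library sizes; the study's methods state no scaling for its likelihood ratio test. The members, lists and this choice were fixed with earlier results of these data known, including that F1 calls depend on scaling. Named genes are those under the threshold in a generation or between generations, the smallest p of each of 10 subfamilies, and a fixed set of neuronal channels. Scripts were tested on simulated data. Alternatives were other scalings, pseudocounts and filters, the removed directions as covariates, the F3 batch and each animal left out. The fits without SGM11 between generations and with separate variances were chosen after seeing the data. The number of animals limits the precision, and the raw depth behind each value is unknown. A few genes are not reported here by name, although the counts include them.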

Additional observations from a re-analysis of the deposited data

Results flagged for a closer look

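Within generations, combinations of a treatment group and a gene chosen by the naming rule were examined for 1 animal far from the others. There were 9 such cases among 164 combinations, where chance alone gives about 8.2. All values are on the log2 scale. In F1, CACNA1H was at 9.70 in Veh SGM15 (others 10.04 to 10.14) and at 10.22 in sGC SGM12 (others 10.36 to 10.39), and SCN8A was at 11.26 in sGC SGM8 (others 10.61 to 10.74). In F2, CACNA1D was at 9.39 in Veh SGM22 (others 9.09 to 9.16) and CACNA2D2 at 11.88 in Veh SGM29 (others 11.38 to 11.46). In F2 sGC SGM21, SCN1A was at 8.55 (others 8.33 to 8.39) and TRPM2 at 8.71 (others 8.43 to 8.49). In F3, TRPM3 was at 11.67 in Veh SGM14 (others 11.88 to 11.95) and TRPV4 at 4.87 in Veh SGM9 (others 5.49 to 5.58).

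The sGC effect differed between generations for 13 results in the joint limma fit, with Benjamini-Hochberg adjusted p-values. These were 3 of 51 channel genes between F1 and F2, a smaller share than the 14% of all genes called. Between F1 and F3 they were 10 of 51, a share close to the 17.4% of all genes. F1 exceeded F2 for SCN4B by 1.98 (adjusted p = 0.00232), CACNA2D2 by 0.50 (0.0198) and CACNA1H by 0.30 (0.0236). F1 exceeded F3 for SCN4B by 2.005 (adjusted p = 0.000632), CACNG8 by 0.60 (0.00219), CACNA1H by 0.37 (0.00284), TRPM3 by 0.58 (0.00667) and TRPC5 by 0.35 (0.0074). It also exceeded F3 for CACNA1E by 0.39 (0.00978), CACNA2D2 by 0.49 (0.0115), SCN1A by 0.90 (0.0196), CACNA1D by 0.37 (0.023) and CACNG7 by 0.37 (0.0236). Against F2, CACNA1H and CACNA2D2 were lost with separate variances (0.0747 and 0.0652), and CACNA1H also on the deposited scale (0.0552) and with the removed directions as covariates (0.0529). Against F3, CACNA1D, CACNA1E, CACNA1H, CACNA2D2, CACNG7 and TRPC5 were lost on the deposited scale (0.0528 to 0.141).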

How the results depend on the processing

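The count of F1 calls depended on the scaling. Over all genes it was 78 on the deposited scale and 1253 with the removed directions as covariates, and over channel genes 2 and 9. Leaving out each animal gave 889 to 1956 and 8 to 14, the lowest of each without Veh SGM11. F2 had 42 calls with quantile normalization, none of them a channel gene, and 0 to 26 on leaving out an animal (26 without Veh SGM28). F3 had 10 with a mean of at least 50, 1 with the directions, 0 in the first batch, 3 with batch as a covariate, and 1 to 20 on leaving out an animal (20 without sGC SGM18, 12 without Veh SGM14, 1 to 3 without any other animal but sGC SGM22 of the second batch, which left it within 1.5 times). SCN9A was the 1 F3 channel gene called on the deposited scale, with quantile normalization, a pseudocount of 10 or a mean of at least 50, and leaving out an animal gave 0 to 1 (1 without sGC SGM18). Between F1 and F2 the count was 5 on the deposited scale and 1 with separate variances, and between F1 and F3 it was 4 on the deposited scale. The cause was not tested. No paired analysis was possible because the groups share no replicate numbers.

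The directions that turned among the channel genes chosen by the naming rule were of small fold changes, none called. On the deposited scale in F2 these were CACNA1B -0.0296, CACNA1H -0.0681, CACNB1 -0.0564, SCN2A -0.0657, SCN7A -0.075, SCN9A -0.0104 and TRPM3 -0.0639. With median-of-ratios size factors they were TRPM4 -0.0034 in F1 and SCN7A -0.0014 in F2. With quantile normalization they were TRPM4 -0.0186 in F1, SCN7A -0.0343 in F2 and CACNA1D 0.0071 in F3. In the first F3 batch, and alike with batch as a covariate, they were CACNA1A 0.0102, CACNA1C 0.0144, CACNA1D 0.0037, CACNA1E 0.003 and CACNG8 0.0711. Among the same genes, leaving out an animal turned TRPM4 (-0.0794 to 0.0478) in F1. In F2 it turned CACNA1A (-0.2087 to 0.0348), CACNA1B (-0.0338 to 0.1557), CACNA1C (-0.0939 to 0.0708), CACNA1H (-0.0141 to 0.0497), CACNA2D2 (-0.1559 to 0.0301), CACNB1 (-0.0013 to 0.0678), HCN4 (-0.2494 to 0.0773), SCN1A (-0.304 to 0.0158), SCN2A (-0.1138 to 0.1309), SCN7A (-0.0525 to 0.0916), SCN8A (-0.2235 to 0.0981), SCN9A (-0.0129 to 0.1735), TRPM3 (-0.0241 to 0.0865) and TRPV2 (-0.0951 to 0.0081). In F3 it turned CACNA1C (-0.0467 to 0.0167), CACNA1D (-0.0397 to 0.0361), CACNG8 (-0.0758 to 0.0282) and TRPV4 (-0.048 to 0.1769).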
